A study of Homo sapiens with 6 samples.

Results

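The nuclear genes for the subunits of the mitochondrial respiratory chain were described by complex in HT29 cells deprived of histidine or tryptophan. Members were the protein-coding genes of GENCODE release 44 that both deposited tables list and whose symbol follows the names of structural subunits: NDUFA, NDUFB, NDUFC, NDUFS and NDUFV genes with NDUFAB1 (complex I), SDHA to SDHD (complex II), UQCR genes with CYC1 (complex III), COX4 to COX8 isoform genes that fit the pattern (complex IV) and ATP5F1, ATP5M and ATP5P genes (complex V, the ATP synthase). This gave 84 genes of the 60676 listed, of which 19892 are protein-coding. There were 37 members in complex I, 4 in complex II, 10 in complex III, 15 in complex IV and 18 in complex V. NDUFA4 was counted with complex IV, where its product is now placed, and COX4I1 fell outside the pattern and was read with the related genes. The rule used symbols only and no measured value.

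HT29 is an established line from a human colorectal adenocarcinoma, labelled WT in all groups, and was kept for 48 h in control medium (untreated), medium without histidine (Hdepl) or medium without tryptophan (Wdepl). There were 6 RNA-seq libraries, 2 per group. The depleted media were built on different bases (RPMI without histidine, DMEM F-12 without tryptophan) and held dialyzed serum, and the base of the control medium is not given for this experiment, so the missing amino acid and the base medium cannot be told apart. Nothing says that libraries of a group came from separate cultures, so p-values measure the spread between these libraries, which may be technical.

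The respiratory chain carries electrons from NADH (complex I) and succinate (complex II) through ubiquinone, complex III and cytochrome c to oxygen at complex IV, and the proton gradient built on the way drives ATP synthesis by complex V. Most subunits are encoded in the nucleus and imported, whereas a small set of core subunits of complexes I, III, IV and V is encoded in mitochondrial DNA, so that the complexes are assembled from both genomes. Colon epithelial cells and lines derived from them use the chain beside glycolysis.

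The libraries held between 46390819 and 64388876 reads assigned to genes. Values below are normalised read counts of the 6 libraries on 1 scale unless stated otherwise. The labelled cell type was checked against its markers: EPCAM, an epithelial adhesion molecule, was at 26653 and 28129 in the untreated, 30628 and 31026 in the Hdepl and 26636 and 26253 in the Wdepl libraries. KRT8, KRT18, KRT20, CDH1, VIL1 and LGALS4 were likewise at 9735 or more in every library. CDX2, a transcription factor of intestinal epithelium, was at 469 and 457 in the untreated, 182 and 172 in the Hdepl and 423 and 365 in the Wdepl libraries, and CDX1 lay between 0 and 21.9. Among these 9 markers KRT20 had the highest log2 fold change (1.74 in Hdepl, 2.38 in Wdepl) and CDX1 the lowest (-4.40 and -2.13). Of 11 markers of leukocytes, mast cells, fibroblasts and endothelium, KIT, TPSAB1, CPA3 and COL1A2 had 0 reads in every library. The highest of the list was COL1A1 at 66.7 and 69.6 in the untreated, 27.1 and 35.6 in the Hdepl and 51.2 and 61.3 in the Wdepl libraries. In a bulk sample, fewer cells and less RNA per cell cannot be told apart, and the values are relative to the other RNA of the same library.

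Of the 84 members, 80 had a mean of at least 10 normalised counts in each comparison and were tested. The others were COX6A2, the muscle isoform of subunit 6A, and COX7B2, an isoform of testis, with 0 reads in all 6 libraries, COX8C, another isoform of testis, with 3 reads in all, and ATP5MGL, a copy of the gene for subunit g, with 1 read. Of the other tissue-restricted isoforms of complex IV, COX7A1 of muscle was at 14.2 and 13.9 in the untreated, 9.03 and 7.12 in the Hdepl and 11.7 and 8.24 in the Wdepl libraries, and COX6B2 of testis at 45.9 and 34.8 in the untreated, 33.4 and 37.6 in the Hdepl and 22.4 and 29.3 in the Wdepl libraries. Their ubiquitous counterparts COX7A2 and COX6B1 were between 2659 and 13624 in every library, so the complex IV transcripts of these cells were almost entirely those of the ubiquitous isoforms.

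After histidine depletion 42 members fell and 22 rose at an adjusted p under 0.05 (limma), and 16 of the 80 tested did not pass. Across all genes tested, 38.2% were lower and 39.1% were higher, so the members' share of falls (52.5%) lay above the background and their share of rises (27.5%) below it. The median log2 fold change of the members was -0.16, beside 0.010 over all genes. Complex III stood lowest, with 7 of its 10 members lower, 2 higher and a median of -0.63. This median lies between UQCRHL (-0.83), a near-identical copy of UQCRH, and UQCRC1 (-0.43), so it rests in part on a copy. The 7 falls include UQCRHL and also UQCRFS1 (-0.15), a small fall that is described with complex III. In complex I 18 of 37 members fell and 14 rose, with a median of -0.12, and in complex II 2 fell and 2 rose. Of the 12 complex IV members tested 5 fell and 1 rose (median -0.18), and of the 17 of complex V 10 fell and 3 rose (median -0.25). The called falls reached 2-fold in 9 of the 80 members tested, beside 2947 of the 18288 genes tested. The largest was that of CYC1, which encodes cytochrome c1, 3.05-fold lower than in untreated cells. A called rise of over 2-fold was seen in 1 member, beside 3002 of the 18288 genes tested. This member, NDUFA7, a small accessory subunit, rests on 124 reads in all libraries together. Its log2 fold change of 1.24 became 0.84 without untreated replicate 2 and 0.83 without Hdepl replicate 1.

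After tryptophan depletion 66 members fell, 4 rose and 10 did not pass, against 34.8% lower and 36.1% higher over all genes tested. The members' share of falls was 82.5%, and their median log2 fold change was -0.45, beside 0.013 over all genes. Falls were spread over the complexes: 28 of 37 members in complex I (median -0.37), all 4 in complex II (-0.53), 8 of 10 in complex III (-0.44), 10 of 12 tested in complex IV (-0.52) and 16 of 17 tested in complex V (-0.45). The largest was that of NDUFA5, an accessory subunit of the arm of complex I that faces the matrix, 2.82-fold lower. The 4 members that rose were NDUFA13, NDUFV2, NDUFV3 and UQCRFS1, and 2 of them (NDUFA13 and NDUFV2) have few reads or share them with other genes, as described with complex I. Both comparisons use the same untreated libraries, so the difference between depletions was taken from a direct test.

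**Figure D1:**
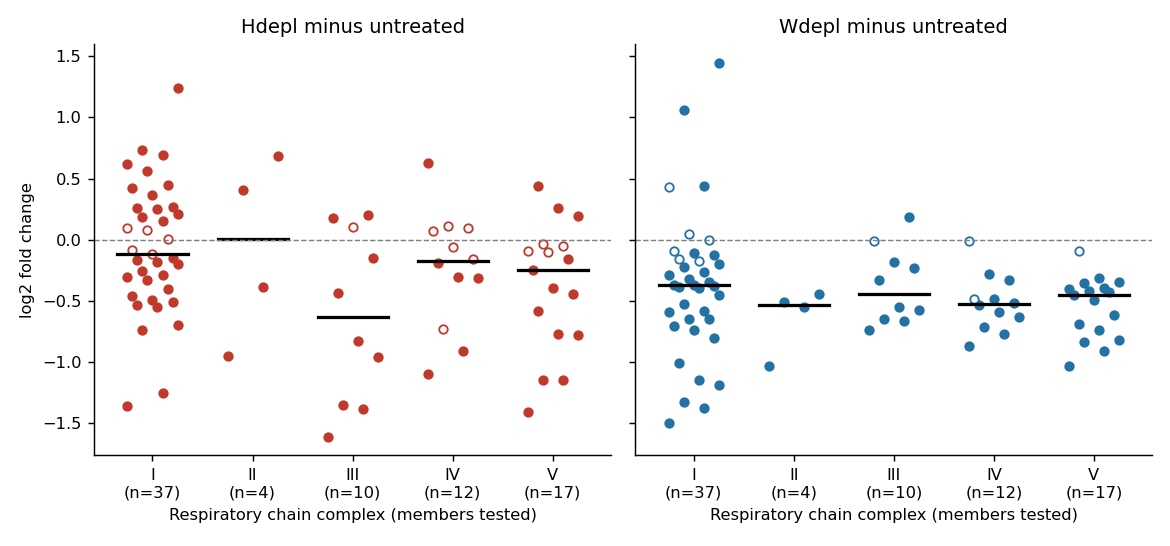
Log2 fold change of each tested member (points) in Hdepl (left) and Wdepl (right) against untreated libraries, by complex, with 2 libraries per group. Filled points passed an adjusted p of 0.05, open points did not, and bars are medians of a complex. In the left panel points lie on both sides of 0 with the complex III median at -0.63, and in the right panel nearly all points lie below 0.

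In the direct comparison of the depleted groups 44 members were higher in Hdepl than in Wdepl cells, 23 were lower and 13 did not differ at the threshold, against 38.7% higher and 38.0% lower over all genes tested. The median difference of the members was 0.24 on the log2 scale, beside 0.011 over all genes. By complex, 20 members were higher in Hdepl and 9 lower in complex I, 3 and 1 in complex II, 3 and 6 in complex III, 8 and 2 in complex IV, and 10 and 5 in complex V, with medians of 0.24, 0.76, -0.37, 0.39 and 0.27. In complex II the count and the median rest on SDHA, and with pseudogene reads added they became 2 and 2 and 0.24. Complex III was the 1 complex in which members lower in Hdepl outnumbered those higher. The split depends on which members are counted: of the 43 tested members with other genes over less than 5% of their exonic bases and less than 5% of reads in annotated pseudogenes, 20 were higher and 16 lower, with a median of 0.043. NDUFB9 and NDUFA5 of complex I had the largest positive differences (1.93 and 1.84), and CYC1 and UQCRC2 of complex III the largest negative ones (-1.40 and -1.18).

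**Figure D2:**
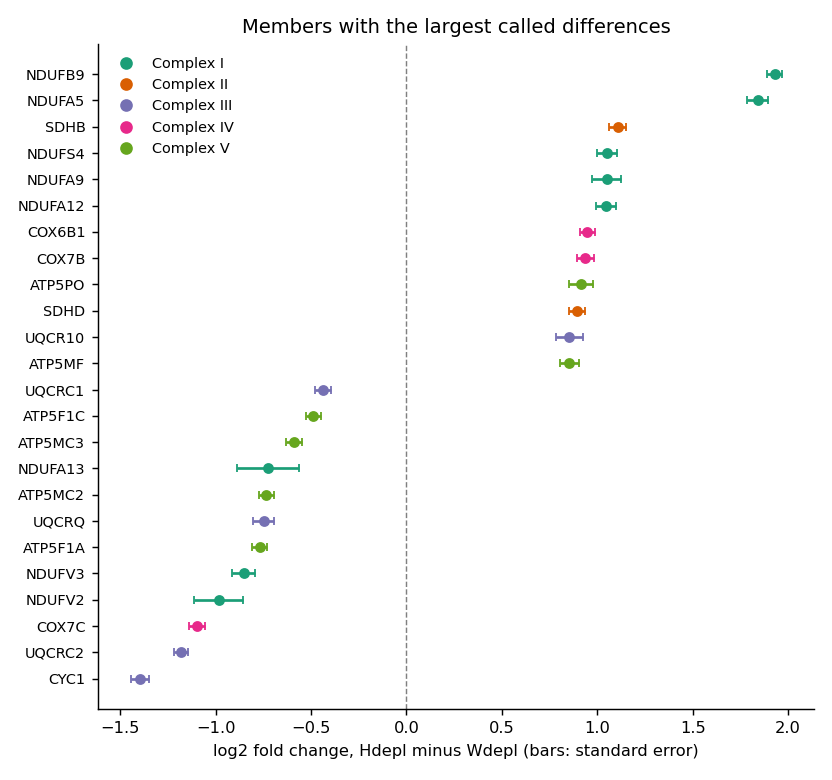
The 12 highest and 12 lowest called differences between Hdepl and Wdepl libraries among the members, as log2 fold change with its standard error (2 libraries per group), coloured by complex. NDUFB9 lies highest at 1.93 and CYC1 lowest at -1.40, and both ends hold members of several complexes.

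Complex I takes electrons from NADH in its N module, passes them to ubiquinone through the Q module and pumps protons in its membrane arm. Its nuclear core subunits, which hold the flavin and the iron-sulfur clusters, differed from one another. After histidine depletion NDUFV1, which binds NADH and the flavin, NDUFS1 and NDUFS8 fell, NDUFS3 and NDUFS7 rose, and NDUFV2 did not pass the test. After tryptophan depletion NDUFV1 and NDUFS3 fell, NDUFV2 rose, and NDUFS1, NDUFS7 and NDUFS8 did not pass. NDUFV1 was at 9871 and 10291 in the untreated, 6792 and 7051 in the Hdepl and 9339 and 9238 in the Wdepl libraries. Its fall after histidine depletion (-0.53 ± 0.05 (SE), adjusted p = 7.14e-10) was larger than that after tryptophan depletion (-0.13 ± 0.05), and the direct difference was -0.42 ± 0.04 (SE), adjusted p = 2.57e-08. NDUFS3, a subunit of the Q module, moved the other way in Hdepl cells, at 3360 and 3338 in the untreated, 4869 and 4951 in the Hdepl and 3037 and 2844 in the Wdepl libraries. It was highest in Hdepl, and the direct difference was 0.74 ± 0.04 (SE), adjusted p = 4.67e-11. NDUFS1 and NDUFS8, which carry iron-sulfur clusters, changed less, by -0.29 ± 0.05 and -0.14 ± 0.06 in Hdepl. The calls of NDUFV1 in Wdepl and of NDUFS8 in Hdepl were lost without either depleted library (adjusted p of 0.19 and 0.21, and of 0.13 and 0.091), that of NDUFS8 also without untreated replicate 2 (0.23), and that of NDUFS3 in Wdepl without Wdepl replicate 2 (0.079).

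The 2 accessory subunits of the Q module were higher in Hdepl than in Wdepl cells. NDUFA5 (chr7:123536997-123557904, minus strand, GRCh38) was at 2419 and 2695 in the untreated, 3298 and 3228 in the Hdepl and 936 and 885 in the Wdepl libraries. The groups did not overlap: Hdepl was highest (0.36 ± 0.06 (SE), adjusted p = 3.81e-06) and Wdepl lowest (-1.49 ± 0.06 (SE), adjusted p = 1.90e-53), which made a direct difference of 1.84 ± 0.06. NDUFA9, which binds a nucleotide cofactor beside the ubiquinone site, was at 571 and 619 in the untreated, 673 and 744 in the Hdepl and 337 and 346 in the Wdepl libraries. Its order was the same, with a direct difference of 1.05 ± 0.08 (SE), adjusted p = 1.30e-09. Its rise over untreated cells in Hdepl (0.26 ± 0.08) was not called without untreated replicate 1 (adjusted p = 0.0502) or Hdepl replicate 2 (0.097). Among the accessory subunits of the N module NDUFS4, a subunit whose loss causes mitochondrial disease in humans, was at 2129 and 2349 in the untreated, 3588 and 3587 in the Hdepl and 1769 and 1694 in the Wdepl libraries. It rose after histidine depletion (0.69 ± 0.06), fell after tryptophan depletion (-0.38 ± 0.05), and differed directly by 1.05 ± 0.05 (SE), adjusted p = 3.24e-12. NDUFA12 was at 2141 and 2275 in the untreated, 2053 and 2082 in the Hdepl and 1032 and 969.7 in the Wdepl libraries. Only its Wdepl level was apart from the untreated one by the test (-1.15 ± 0.06 (SE), adjusted p = 2.34e-41, against -0.09 ± 0.06 (SE), adjusted p = 0.168 after histidine depletion). NDUFV3 went in the reverse order, at 1281 and 1184 in the untreated, 968 and 889 in the Hdepl and 1683 and 1670 in the Wdepl libraries, lowest in Hdepl (-0.40 ± 0.07) and highest in Wdepl (0.44 ± 0.06).

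The membrane arm of complex I has 20 nuclear accessory members besides the acyl carrier protein NDUFAB1. After histidine depletion 11 fell and 7 rose, and after tryptophan depletion 17 fell and 1 rose. NDUFB9 (chr8:124539101-124580648, plus strand), an accessory subunit with a LYR motif that binds NDUFAB1, was at 14887 and 15323 in the untreated, 23198 and 22882 in the Hdepl and 6164 and 5940 in the Wdepl libraries. The Hdepl libraries were highest and the Wdepl libraries lowest, with log2 fold changes of 0.62 ± 0.05 (SE), adjusted p = 7.07e-11, and -1.33 ± 0.05 (SE), adjusted p = 6.06e-58. Its direct difference, 1.93 ± 0.04, was the largest of the members tested. NDUFS5 and NDUFB6, by contrast, fell in both. NDUFS5 was at 5890 and 6231 in the untreated, 2294 and 2393 in the Hdepl and 2737 and 2626 in the Wdepl libraries. The untreated libraries were more than 2-fold above both depleted groups, with log2 fold changes of -1.36 ± 0.05 and -1.18 ± 0.05. NDUFB6 was at 1444 and 1583 in the untreated, 615 and 647 in the Hdepl and 598 and 573 in the Wdepl libraries, with -1.25 ± 0.07 and -1.38 ± 0.07, and the depleted groups did not differ from each other at the threshold (0.11 ± 0.07 (SE), adjusted p = 0.145). NDUFAB1, which serves both fatty acid synthesis and complex I, was at 3396 and 3667 in the untreated, 2785 and 2795 in the Hdepl and 2355 and 2378 in the Wdepl libraries. It fell in both depletions, by -0.33 ± 0.05 and -0.58 ± 0.05.

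**Figure D3:**
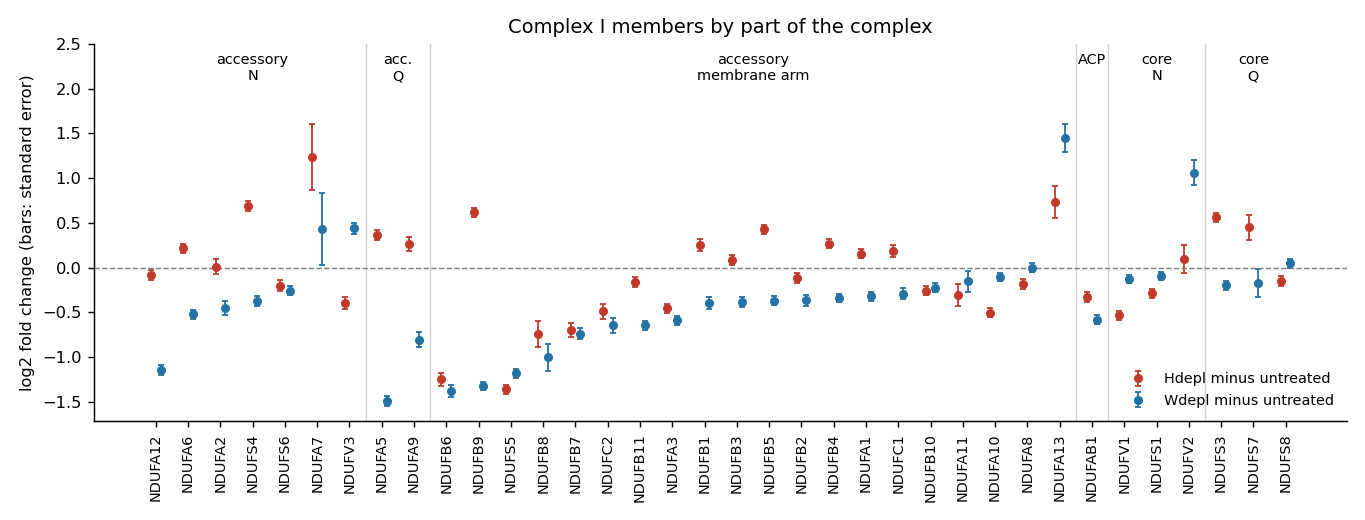
Log2 fold change with its standard error of 36 of the 37 complex I members in Hdepl (red) and Wdepl (blue) against untreated libraries, 2 libraries per group, ordered by part of the complex (N and Q modules, membrane arm, ACP for the acyl carrier protein). Core N module subunits NDUFV1 and NDUFS1 lie lower in red, whereas NDUFA5, NDUFA9, NDUFS4 and NDUFB9 lie above 0 in red and below 0 in blue.

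Some complex I members rest on few reads, and other genes cover part of the exons of several of these. NDUFA7 had 124 reads in the 6 libraries together, NDUFB8 719, NDUFA13 775, NDUFS7 808 and NDUFV2 908, whereas NDUFB9 had 89454. Other genes annotated on the same strand overlap 32.5% of the exonic bases of NDUFA7, 33.8% of NDUFB8 and 21.0% of NDUFA13, and genes on the opposite strand overlap 51.4% of those of NDUFS7. NDUFA13, an accessory subunit also known as GRIM-19, was at 75.4 and 64.7 in the untreated, 133 and 102 in the Hdepl and 184 and 203 in the Wdepl libraries. It was the 1 member that rose in both depletions (0.74 ± 0.18 and 1.45 ± 0.16), and the part of the overlap in the read numbers and in these rises was not tested. The pseudogenes of NDUFV2, a core subunit with an iron-sulfur cluster, held 2490 reads beside its own 908. NDUFV2 was at 106 and 109 in the untreated, 115 and 114 in the Hdepl and 223 and 232 in the Wdepl libraries, and when the reads of the pseudogenes were added its rise of 1.06 ± 0.14 in Wdepl became 0.094 and did not pass, its change in Hdepl went from 0.09 ± 0.15 to 0.23 and passed (adjusted p = 0.0139), and its direct difference of -0.98 ± 0.13 became 0.12 and did not pass.

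Complex II, succinate dehydrogenase, is encoded wholly in the nucleus and also works in the citric acid cycle. Its 4 members did not move together after histidine depletion. SDHB, the iron-sulfur subunit, was at 4881 and 5274 in the untreated, 8043 and 8172 in the Hdepl and 3815 and 3712 in the Wdepl libraries. It was highest in Hdepl (0.68 ± 0.05 (SE), adjusted p = 1.23e-11) and lowest in Wdepl (-0.44 ± 0.05 (SE), adjusted p = 3.08e-15), with a direct difference of 1.11 ± 0.04. SDHD, one of the membrane anchors, had the same order, at 3550 and 3750 in the untreated, 4768 and 4830 in the Hdepl and 2623 and 2540 in the Wdepl libraries, with 0.40 ± 0.05, -0.51 ± 0.05 and a direct difference of 0.89 ± 0.04. The other anchor, SDHC, was at 6205 and 6268 in the untreated, 3156 and 3261 in the Hdepl and 4235 and 4326 in the Wdepl libraries. It was lowest in Hdepl, with -0.95 ± 0.05 and -0.55 ± 0.05 against untreated cells and a direct difference of -0.42 ± 0.04 (SE), adjusted p = 4.36e-08. The anchors therefore went in opposite directions after histidine depletion, each past the threshold. SDHA, the flavoprotein, fell in both (-0.38 ± 0.08 and -1.03 ± 0.09), but its 2868 reads stood beside 9039 on its 4 annotated pseudogenes, and with these added the changes became -1.02 in Hdepl and -0.35 in Wdepl, both still called, and the direct difference changed from 0.63 to -0.69 (adjusted p = 1.79e-09). No direction between the depletions is given for SDHA for this reason.

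Complex III passes electrons from ubiquinol to cytochrome c. Its 2 nuclear redox subunits and its 2 large core proteins were lower in Hdepl than in Wdepl cells by the direct test. CYC1 (chr8:144095039-144097525, plus strand) was at 11145 and 12258 in the untreated, 3674 and 3955 in the Hdepl and 10145 and 9940 in the Wdepl libraries. The Hdepl libraries were far below the others, with -1.61 ± 0.05 (SE), adjusted p = 2.72e-18 against untreated cells. After tryptophan depletion the change was -0.23 ± 0.05 (SE), adjusted p = 9.70e-06, and the direct difference was -1.40 ± 0.05 (SE), adjusted p = 3.16e-14. UQCRC2, a core protein that faces the matrix (chr16:21953288-21983660, plus strand), was at 15393 and 16094 in the untreated, 6098 and 6188 in the Hdepl and 14059 and 13806 in the Wdepl libraries. The pattern was that of CYC1: -1.35 ± 0.05 after histidine depletion, -0.18 ± 0.05 after tryptophan depletion and -1.18 ± 0.04 (SE), adjusted p = 1.58e-14 directly. The Wdepl call of UQCRC2 was lost without either Wdepl library (adjusted p = 0.062 and 0.087). UQCRC1, its partner in the complex, was at 7590 and 7946 in the untreated, 5603 and 5838 in the Hdepl and 7866 and 7633 in the Wdepl libraries. It fell after histidine depletion (-0.43 ± 0.05 (SE), adjusted p = 3.29e-08), while the untreated and Wdepl libraries overlapped (-0.01 ± 0.05 (SE), adjusted p = 0.846). UQCRFS1, the Rieske iron-sulfur protein, was at 5984 and 6410 in the untreated, 5544 and 5582 in the Hdepl and 7118 and 7035 in the Wdepl libraries. Its changes were small, -0.15 ± 0.05 and 0.18 ± 0.05, and opposite in sign. Its fall in Hdepl was not called without either Hdepl library (adjusted p = 0.12 and 0.11) or without untreated replicate 2 (0.055).

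The small subunits of complex III split. UQCRQ, which sits beside cytochrome b, was at 3378 and 3240 in the untreated, 1191 and 1337 in the Hdepl and 2090 and 2146 in the Wdepl libraries. It fell in both depletions and further in Hdepl (-1.38 ± 0.06 (SE), adjusted p = 2.90e-16, against -0.65 ± 0.05 in Wdepl, direct difference -0.75 ± 0.05). UQCRH, the acidic hinge protein that helps cytochrome c1 bind cytochrome c, was at 9623 and 10444 in the untreated, 5026 and 5214 in the Hdepl and 6864 and 6674 in the Wdepl libraries, with -0.96 ± 0.05, -0.57 ± 0.05 and a direct difference of -0.40 ± 0.04. UQCRHL, an intronless copy of UQCRH, gave similar values (-0.83 ± 0.09 and -0.73 ± 0.08), but reads of near-identical copies cannot be assigned with certainty. UQCR10 and UQCRB, small subunits of the membrane part, went the other way. UQCR10 was at 1048 and 1158 in the untreated, 1265 and 1258 in the Hdepl and 656 and 741 in the Wdepl libraries. It was slightly higher in Hdepl (0.20 ± 0.07 (SE), adjusted p = 0.00735) and clearly lower in Wdepl (-0.67 ± 0.07 (SE), adjusted p = 8.39e-17). UQCRB was at 6003 and 6566 in the untreated, 7230 and 6914 in the Hdepl and 4441 and 4180 in the Wdepl libraries, with 0.18 ± 0.05, -0.55 ± 0.05 and 0.71 ± 0.05 (SE), adjusted p = 2.88e-10 directly. The rise of UQCR10 in Hdepl was not called without untreated replicate 1 (adjusted p = 0.082), nor that of UQCRB without Hdepl replicate 1 (0.12) or under quantile normalisation, which turned it to -0.030. UQCR11 did not pass after histidine depletion (0.10 ± 0.08) and fell after tryptophan depletion (-0.33 ± 0.09), a call lost without Wdepl replicate 2 (adjusted p = 0.11).

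**Figure D4:**
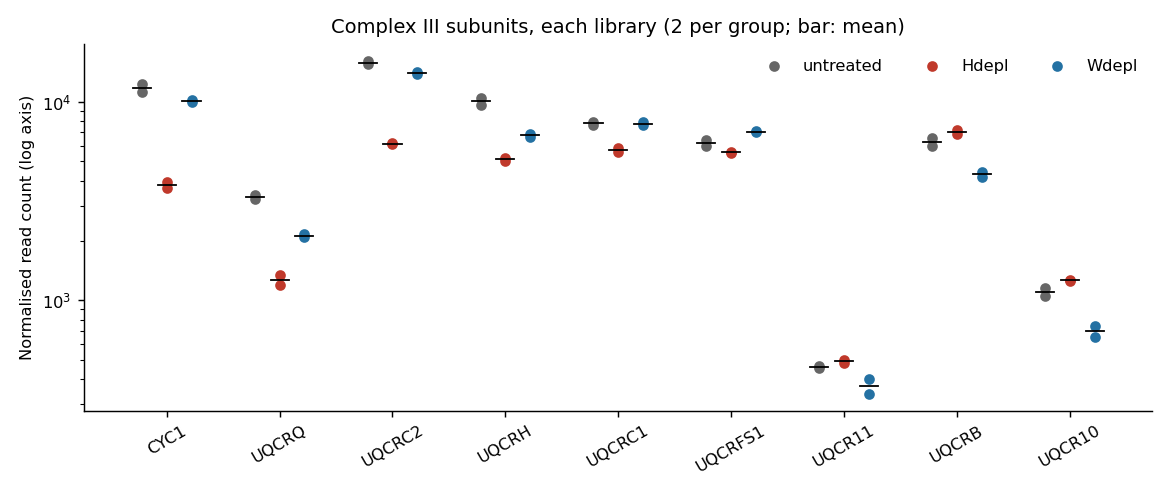
Normalised read counts (log axis) of 9 complex III members in each library, ordered by their change in Hdepl, with points for libraries (grey untreated, red Hdepl, blue Wdepl) and bars for the mean of 2. CYC1, UQCRQ, UQCRC2 and UQCRH have red points well below the grey ones, whereas UQCR11, UQCRB and UQCR10 have their lowest points in blue. Counts are not divided by gene length, so heights of different genes are not compared.

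Complex IV, cytochrome c oxidase, transfers electrons to oxygen. Its nuclear subunits surround a catalytic core made in the mitochondrion. After tryptophan depletion 9 of its 10 ubiquitous nuclear members fell, the exception being COX7C. COX7C was at 10212 and 10914 in the untreated, 4819 and 5007 in the Hdepl and 10517 and 10541 in the Wdepl libraries. It was low in Hdepl alone, with -1.09 ± 0.05 (SE), adjusted p = 1.21e-15, whereas untreated and Wdepl libraries overlapped (-0.01 ± 0.05 (SE), adjusted p = 0.839). COX7A2, which lies at the contact with complex III, was at 4880 and 5146 in the untreated, 2659 and 2661 in the Hdepl and 3034 and 3127 in the Wdepl libraries. It fell in both, by -0.90 ± 0.05 and -0.71 ± 0.05, and was lower in Hdepl by the direct test (-0.21 ± 0.04 (SE), adjusted p = 2.75e-04). COX6B1, at the dimer interface on the outer side, was at 12356 and 12964 in the untreated, 13283 and 13624 in the Hdepl and 6972 and 6968 in the Wdepl libraries. Its Wdepl libraries were lowest (-0.87 ± 0.05 (SE), adjusted p = 3.04e-38), and its change after histidine depletion did not pass (0.10 ± 0.05 (SE), adjusted p = 0.0847) and became a called fall under quantile normalisation (-0.17, adjusted p = 3.39e-04). COX7B, a small subunit needed for assembly, was the 1 complex IV member that rose after histidine depletion, at 5572 and 6015 in the untreated, 9084 and 8723 in the Hdepl and 4633 and 4663 in the Wdepl libraries. Its log2 fold changes were 0.63 ± 0.05 (SE), adjusted p = 7.76e-11, and -0.32 ± 0.05 (SE), adjusted p = 7.17e-10. NDUFA4 was at 4216 and 4272 in the untreated, 3598 and 3787 in the Hdepl and 2439 and 2553 in the Wdepl libraries, lowest in Wdepl, with -0.19 ± 0.05 and -0.77 ± 0.05. The Hdepl call of NDUFA4 was lost without Hdepl replicate 1 (adjusted p = 0.080). COX6A1 and COX5A changed little in Hdepl (0.11 ± 0.05 and -0.06 ± 0.05, neither past the threshold) and fell in Wdepl (-0.48 ± 0.05 and -0.59 ± 0.05). The Hdepl change of COX6A1 passed with pseudogene reads added (0.14, adjusted p = 0.020), with edgeR (0.10, 0.036) and with a replicate block (0.11, 0.039).

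Complex V joins a catalytic F1 head to a membrane rotor, the c-ring, with a peripheral stalk that holds the head still. Of the 5 members of the head, 4 fell and 1 rose after histidine depletion, and all 5 fell after tryptophan depletion. The 2 subunits that alternate in the head went apart. ATP5F1A, the alpha subunit (chr18:46080248-46104334, minus strand), was at 20158 and 21087 in the untreated, 9052 and 9448 in the Hdepl and 15797 and 15730 in the Wdepl libraries. It was lowest in Hdepl (-1.15 ± 0.05 (SE), adjusted p = 4.45e-16, and -0.39 ± 0.05 (SE), adjusted p = 7.61e-13 in Wdepl). ATP5F1B, the catalytic beta subunit, was at 46320 and 49484 in the untreated, 57215 and 56712 in the Hdepl and 37758 and 37703 in the Wdepl libraries. It was highest in Hdepl (0.26 ± 0.06 (SE), adjusted p = 4.15e-04) and lowest in Wdepl (-0.35 ± 0.05 (SE), adjusted p = 6.19e-09). Its rise in Hdepl became a called fall under quantile normalisation (-0.087, adjusted p = 0.024) and was not called without either Hdepl library (adjusted p = 0.11 and 0.087). The direct difference was -0.77 ± 0.04 for the alpha and 0.59 ± 0.04 for the beta subunit. The 4 members of the peripheral stalk were higher in Hdepl than in Wdepl, with the call of ATP5PB (0.16) lost without Wdepl replicate 2 (adjusted p = 0.055). ATP5PO, which ties the stalk to the head, was at 754 and 799.7 in the untreated, 1047 and 1050 in the Hdepl and 555 and 556 in the Wdepl libraries, with 0.44 ± 0.07, -0.49 ± 0.07 and 0.92 ± 0.06 (SE), adjusted p = 3.91e-10 directly. In the membrane part ATP5MF, subunit f, was at 2530 and 2555 in the untreated, 2236 and 2287 in the Hdepl and 1297 and 1209 in the Wdepl libraries. It was lowest in Wdepl (-1.03 ± 0.05 (SE), adjusted p = 1.12e-38). ATP5MJ, a small proteolipid of the membrane part, passed the test in neither comparison (-0.10 ± 0.06 and -0.09 ± 0.05).

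The c-ring is built from a single mature protein, subunit c, that 3 genes on different chromosomes encode: ATP5MC1 (chr17:48892765-48895871, plus strand), ATP5MC2 (chr12:53632726-53677408, minus strand) and ATP5MC3 (chr2:175176258-175181710, minus strand). The targeting peptides that are cut off after import differ, while the last 77 codons of the 3 coding sequences encode the same residues. These 231 coding bases are shown because the measured levels of the genes differ although the product is the same. They are from the canonical GENCODE release 44 transcripts (GRCh38), 5′ to 3′ on the coding strand without the stop codon, and capitals mark the 57 positions at which not all 3 genes carry the same base.
ATP5MC1: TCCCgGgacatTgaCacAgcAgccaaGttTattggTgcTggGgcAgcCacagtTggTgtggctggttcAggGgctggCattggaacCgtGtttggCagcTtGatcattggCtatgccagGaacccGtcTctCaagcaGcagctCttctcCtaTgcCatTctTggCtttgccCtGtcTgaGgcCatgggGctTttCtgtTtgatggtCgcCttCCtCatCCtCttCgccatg
ATP5MC2: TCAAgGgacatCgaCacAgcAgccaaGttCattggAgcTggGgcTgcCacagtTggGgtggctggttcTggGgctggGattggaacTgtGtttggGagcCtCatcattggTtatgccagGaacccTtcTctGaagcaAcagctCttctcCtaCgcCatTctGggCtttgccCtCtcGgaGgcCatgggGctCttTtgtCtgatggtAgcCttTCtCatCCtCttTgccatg
ATP5MC3: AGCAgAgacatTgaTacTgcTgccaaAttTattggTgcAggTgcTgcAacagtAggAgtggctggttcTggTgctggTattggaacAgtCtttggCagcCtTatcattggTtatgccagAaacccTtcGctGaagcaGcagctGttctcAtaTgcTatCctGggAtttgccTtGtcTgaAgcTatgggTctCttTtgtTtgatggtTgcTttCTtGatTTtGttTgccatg
ATP5MC1 and ATP5MC2 differ at 27 of these bases, and ATP5MC3 differs from each of them at 46. ATP5MC1 was at 4348 and 4381 in the untreated, 3937 and 4233 in the Hdepl and 2459 and 2524 in the Wdepl libraries. The Wdepl libraries were lowest (-0.82 ± 0.05 (SE), adjusted p = 9.37e-34), and the change in Hdepl did not pass (-0.09 ± 0.05 (SE), adjusted p = 0.127). ATP5MC2 was at 13841 and 14087 in the untreated, 6122 and 6460 in the Hdepl and 10624 and 10300 in the Wdepl libraries. Here the Hdepl libraries were lowest (-1.14 ± 0.05 (SE), adjusted p = 3.11e-16), with -0.42 ± 0.05 in Wdepl. ATP5MC3 was at 7858 and 8145 in the untreated, 2918 and 3075 in the Hdepl and 4530 and 4481 in the Wdepl libraries, again lowest in Hdepl (-1.41 ± 0.05 (SE), adjusted p = 8.27e-18, and -0.84 ± 0.05 in Wdepl). By the direct test ATP5MC1 was higher in Hdepl than in Wdepl cells (0.71 ± 0.04) and ATP5MC2 and ATP5MC3 were lower (-0.73 ± 0.04 and -0.59 ± 0.04). The order of the depleted groups was therefore reversed between genes for the same mature subunit. Pseudogenes of ATP5MC1 held 4.03% of the reads of the gene and its pseudogenes, and with them its change in Hdepl was 0.015.

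Summed levels show what these changes amount to when abundant genes count more. Here the level is reads per kilobase of exon, scaled to the same total in every library. On this scale all members together were at 12838 and 13635 in untreated, 10399 and 10590 in Hdepl and 9434 and 9321 in Wdepl libraries. The groups did not overlap, and the ratio of means was 0.793 for Hdepl and 0.708 for Wdepl. Complex III was at 1774 and 1899 in untreated, 917 and 948 in Hdepl and 1457 and 1430 in Wdepl libraries. This was the 1 complex whose sum was lowest in Hdepl, with ratios of 0.508 and 0.786. Complex II was at 486 and 506, 463 and 473, and 340 and 337 in the same order, so its Hdepl sum lay close to the untreated one (ratio 0.943) and its Wdepl sum did not (0.682). The ratios were 0.803 and 0.687 for complex I, 0.830 and 0.680 for complex IV, and 0.871 and 0.722 for complex V. Over all genes tested, this scale placed the median log2 fold change 0.10 lower than the normalised counts did in Hdepl and 0.042 lower in Wdepl. Without division by length, the order of complexes I and V in Hdepl was reversed. As a share of assigned reads, complex V was at 0.282% and 0.289% in untreated and 0.206% and 0.208% in Hdepl libraries. Complex I was at 0.226% and 0.231%, then 0.193% and 0.195%. No test was run on these sums.

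**Figure D5:**
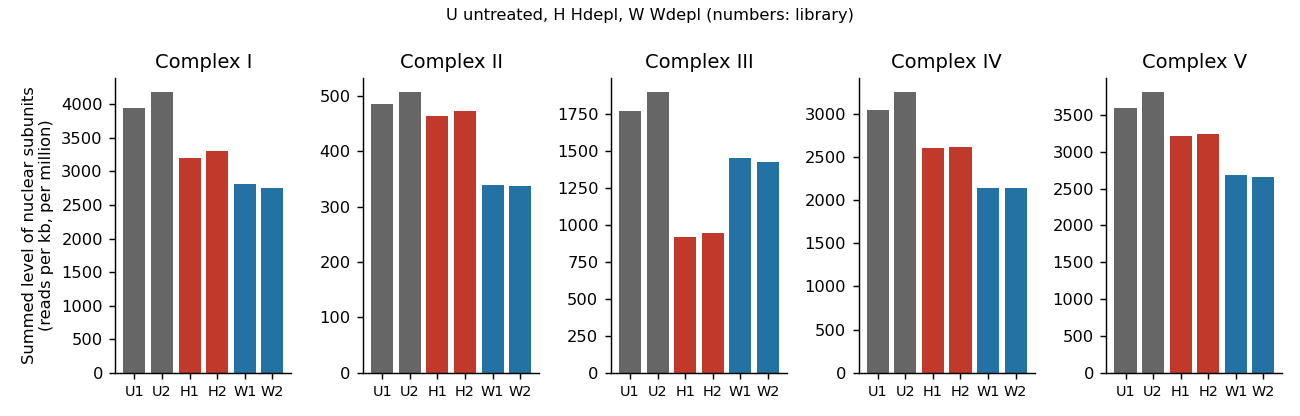
Summed level of the nuclear members of each complex (reads per kilobase, scaled to the same total; bars start at 0) in each of the 6 libraries, grey untreated, red Hdepl and blue Wdepl. In complexes I, II, IV and V the blue bars are lowest, and in complex III the red bars are lowest at 917 and 948.

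Related genes of the pathway were read from 10 lists. Among subunits and partners outside the symbol rule, CYCS, which encodes the cytochrome c that links complexes III and IV, was at 9154 and 9676 in the untreated, 26881 and 26635 in the Hdepl and 8415 and 8518 in the Wdepl libraries. It rose after histidine depletion (1.52 ± 0.05 (SE), adjusted p = 2.41e-18), opposite to CYC1, whose product it takes electrons from. COX4I1, a complex IV subunit, fell slightly in Hdepl (-0.13 ± 0.05, not called without either Hdepl library, adjusted p = 0.36 and 0.15) and fell in Wdepl (-0.53 ± 0.05). ATP5IF1, which inhibits the ATP synthase when it runs backwards, fell in both (-0.85 ± 0.05 and -1.10 ± 0.05). COX7A2L, which joins complexes III and IV into supercomplexes, rose in Wdepl (0.56 ± 0.05), as did NDUFA4L2, a relative of NDUFA4 (1.32 ± 0.12). In Hdepl COX7A2L fell slightly (-0.11), a call lost without either Hdepl library (adjusted p = 0.25 and 0.22) or untreated replicate 2 (0.25). NDUFA4L2 did not pass there (0.14). By the direct test both were lower in Hdepl than in Wdepl (-0.69 and -1.19).

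Of the 13 subunits encoded in mitochondrial DNA, 7 fell and 0 rose after histidine depletion (median -0.25), and 6 fell and 1 rose after tryptophan depletion (-0.13). Their summed level was 132958 and 97217 in the untreated libraries, which lay further apart than the other pairs, 100224 and 85253 in Hdepl and 100220 and 104739 in Wdepl. The count of 0 rises (limma) was also 0 at an unadjusted p under 0.05, by edgeR and by DESeq2, and it was 4 without untreated replicate 1. These counts turned on single libraries. In Hdepl the falls numbered 2 without Hdepl replicate 2 and 4 without untreated replicate 1. In Wdepl 0 and 1 fell and 0 rose without Wdepl replicate 1 and 2, 9 rose and 1 fell without untreated replicate 1, and 12 fell and 0 rose without untreated replicate 2, so no direction is given for them. Of 12 transcriptional regulators of respiratory genes, 9 rose and 2 fell in Hdepl and 6 rose and 3 fell in Wdepl, beside 39.1% higher and 38.2% lower in Hdepl and 36.1% and 34.8% in Wdepl over all genes tested. TFAM, which packages and transcribes mitochondrial DNA, was at 6061 and 6539 in the untreated, 7565 and 7740 in the Hdepl and 2652 and 2562 in the Wdepl libraries, with 0.29 ± 0.05 in Hdepl and -1.28 ± 0.05 in Wdepl. NRF1, a transcription factor of many subunit genes, rose in both (0.30 ± 0.06 and 0.59 ± 0.06), and so did the coactivator gene PPARGC1A (0.66 ± 0.09 and 0.25 ± 0.09), the latter not called without untreated replicate 2 (adjusted p = 0.054) or Wdepl replicate 2 (0.082). PPARGC1B fell in Hdepl (-2.06 ± 0.10) and did not pass in Wdepl (-0.00 ± 0.07).

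Assembly factors gave counts in both directions, to be read against the same background of all genes tested, 39.1% higher and 38.2% lower in Hdepl and 36.1% and 34.8% in Wdepl. Of 16 factors of complex I, 5 rose and 8 fell in Hdepl and 4 rose and 10 fell in Wdepl. Of 24 tested factors of complex IV, 8 rose and 10 fell in Hdepl and 4 rose and 13 fell in Wdepl. The counts of rises and falls were 1 and 3, then 2 and 1, of 4 factors of complex II, 2 and 4, then 3 and 2, of 6 factors of complex III, and 1 and 3, then 1 and 2, of 4 factors of the ATP synthase, each for Hdepl and then Wdepl. The 1 rise of the last list in Wdepl became 2 without untreated replicate 2. Of 14 genes of coenzyme Q synthesis and the electron transfer flavoprotein, 4 rose (2 without either Hdepl library) and 8 fell in Hdepl and 3 rose and 7 fell in Wdepl. Against that background, of 14 citric acid cycle enzymes 5 rose (3 without either Hdepl library) and 9 fell in Hdepl and 1 rose and 11 fell in Wdepl. The largest fall in both was that of IDH2, the mitochondrial NADP-dependent isocitrate dehydrogenase, with -3.16 ± 0.06 and -1.54 ± 0.05. The largest rises in Hdepl were those of OGDH (1.65) and IDH3A (1.53), and the 1 rise in Wdepl was that of IDH3A (0.66).

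Promoter sequences of 67 of the 84 members were found in the RefSeq table (GRCh38.p14), which gives 250 bases before the start and 50 after it. Short cores known for respiratory genes were searched on both strands: GCATGCGC for NRF1, CCGGAAG for ETS factors such as GABP and AAGATGGC for YY1. The letters of the NRF1 core lay in 13 of the 67 windows (19.4%), beside 3.27% of all 27305 windows in the table and 5.23% of those of protein-coding genes tested. The ETS core lay in 28.4%, beside 10.7% and 18.8%, and the YY1 core in 16.4%, beside 3.03% and 5.22%. Of members that rose in Hdepl, 7 of 18 windows held the YY1 core, and of those that fell 3 of 31, given as a description with no test. The shares of the cores among all genes that rose or fell were not counted. For the NRF1 core the counts were 5 of 18 and 4 of 31, and for the ETS core 6 of 18 and 7 of 31. In Wdepl, where 4 members with a window rose and 51 fell, the YY1 core lay in 0 and 8 windows, the NRF1 core in 0 and 11 and the ETS core in 1 and 17. SDHB and UQCRQ are shown as members that went in opposite directions in Hdepl, from 250 bases before to 30 after the start, with capitals for the cores found.
SDHB, chr1:17054003-17054282, GRCh38.p14, minus strand: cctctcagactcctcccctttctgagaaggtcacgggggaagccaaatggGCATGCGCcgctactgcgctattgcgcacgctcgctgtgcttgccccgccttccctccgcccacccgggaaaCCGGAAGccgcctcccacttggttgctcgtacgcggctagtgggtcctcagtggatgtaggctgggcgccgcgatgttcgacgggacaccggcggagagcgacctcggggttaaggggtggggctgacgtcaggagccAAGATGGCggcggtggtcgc
UQCRQ, chr5:132866392-132866671, GRCh38.p14, plus strand: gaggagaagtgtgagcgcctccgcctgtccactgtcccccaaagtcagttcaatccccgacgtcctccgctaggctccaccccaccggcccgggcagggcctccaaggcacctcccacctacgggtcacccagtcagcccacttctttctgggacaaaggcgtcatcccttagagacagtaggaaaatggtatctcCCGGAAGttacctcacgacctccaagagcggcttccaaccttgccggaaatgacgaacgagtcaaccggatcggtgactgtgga
The SDHB window holds an NRF1 core at -200, an ETS core at -128 and a YY1 core at 11 from the start, and the UQCRQ window an ETS core at -54. A match of letters is not a site of binding.

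The share of histidine and tryptophan codons was read from the coding sequences of all 84 members, because these are the amino acids withheld. The median member had 129 codons, of which 2.30% were histidine codons (CAC or CAT) and 1.5% the tryptophan codon (TGG), beside medians of 2.45% and 1.08% over 13196 protein-coding genes tested, whose median length was 468 codons. There were 10 members without a histidine codon, among them ATP5MC1, and 19 without a tryptophan codon, among them ATP5F1A, ATP5F1B and ATP5MC1. Across the 80 tested members the rank correlation of histidine codon share with the change in Hdepl was -0.041, and that of tryptophan codon share with the change in Wdepl was -0.051. They were -0.086 across the 13196 protein-coding genes tested in Hdepl and -0.030 across the 12850 tested in both depletions. All 4 values are descriptions across genes that share the same libraries, with no test.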

How the data were processed

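Total RNA of 6 HT29 samples was made into stranded mRNA libraries with unique molecular identifiers and read as pairs. Per the labels, the authors aligned with STAR 2.7.10a to GRCh38, counted on exons of GENCODE release 38 with HTSeq 2.0.5 and normalised with DESeq2. They deposited 2 tables of normalised counts (count signal divided by a size factor per library) for 60676 genes, 1 for each depletion with the same untreated libraries. The strand setting, the use of the molecular identifiers and the handling of reads shared by several genes are not given in the sources used here.

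Every deposited value was a whole number of reads times 1 constant per library (100% of values, tolerance 0.01), so reads were recovered. Each depletion was tested within its own table with limma 3.58.1 (trend on, two-sided) on log2(normalised count + 1). Genes averaging under 10 were left out, with Benjamini-Hochberg adjustment over all genes tested and a threshold of 0.05. This scale understates changes of low genes. Hdepl and Wdepl were compared in 1 limma fit on recovered reads divided by size factors of all 6 libraries. Levels per length used the union of exons of GENCODE release 44. Tests were checked on simulated data, from which no value is reported here. Alternatives were edgeR 4.0.16 and DESeq2 1.42.0 on recovered reads, other pseudocounts and filters, quantile normalisation, a replicate block, leaving out each library, and, chosen after seeing the data, adding pseudogene reads or keeping members with little overlap (other genes over less than 5% of the exonic bases, less than 5% of reads in pseudogenes, near-identical copies such as UQCRH and UQCRHL not removed).

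The members, complexes, gene lists and tests were chosen with earlier results of these data known. Genes were named by a rule: per comparison and complex up to 3 called rises and 3 called falls of largest size with a mean of at least 100 in the higher group, up to 2 of each per related list, and a fixed set (complex II, core complex I, c-ring, isoforms and partners). Some genes that met the rule are not printed, among them ATP5F1D, COX6C, COX8A and the assembly factors. NDUFA7, NDUFA9, NDUFA12, UQCRC1, UQCRH, COX5A, ATP5PB and ATP5MJ were named after their values were seen. Values of 1 complex I member are not reported here, and it stays in the counts and medians. With 2 libraries a group, precision rests on the spread that limma shares across genes.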

Additional observations from a re-analysis of the deposited data

Results flagged for a closer look

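In 21 members the calls after histidine depletion and after tryptophan depletion had opposite signs against the shared untreated libraries (limma, adjusted p under 0.05, 2 libraries per group). The direct test between the depleted groups was past the threshold in all 21. Opposite calls against shared libraries make that outcome likely, so it is not separate support. In 19 of them the level rose in Hdepl and fell in Wdepl. The direct log2 difference of these was 1.93 for NDUFB9, 1.84 for NDUFA5, 1.05 for NDUFS4, 1.05 for NDUFA9, 0.78 for NDUFB5, 0.74 for NDUFS3, 0.72 for NDUFA6, 0.63 for NDUFB1, 0.59 for NDUFB4, 0.46 for NDUFA1 and 0.46 for NDUFC1 in complex I. In complex II it was 1.11 for SDHB and 0.89 for SDHD. In complex III it was 0.85 for UQCR10 and 0.71 for UQCRB, in complex IV 0.94 for COX7B, and in complex V 0.92 for ATP5PO, 0.59 for ATP5F1B and 0.53 for ATP5MK. The other 2 members fell in Hdepl and rose in Wdepl, with a direct difference of -0.85 for NDUFV3 and -0.35 for UQCRFS1. Since members of this kind were picked by their signs, the counts are a description. Over all genes tested, 77.3% were called in either direction in Hdepl and 70.8% in Wdepl. The share of all genes with opposite calls was not counted, so the counts are not given as a trait of the members. Of the calls of these 21 members against untreated cells, those of ATP5F1B, NDUFA1, NDUFA9, NDUFC1, UQCR10, UQCRB and UQCRFS1 in Hdepl and of NDUFS3 in Wdepl were lost when a single library was left out.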

How the results depend on the processing

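A further limit of 0.5 on the size of the log2 fold change left 7 members higher and 21 lower in Hdepl, 2 and 36 in Wdepl, and 28 and 10 in the direct comparison. Calls at this limit were not counted over all genes tested. The quartiles of log2 fold change over all genes were -0.67 and 0.67 in Hdepl, -0.45 and 0.45 in Wdepl, and -0.65 and 0.65 directly. Among the 43 tested members with little overlap the counts were 10 higher and 26 lower in Hdepl (median -0.26), 1 and 36 in Wdepl, and 20 and 16 directly (median 0.043). Quantile normalisation moved the median of the members to -0.24 in Hdepl and -0.49 in Wdepl. The direct median was 0.22 with edgeR and 0.26 without a filter. Leaving out each library in turn gave 18 to 24 members higher and 35 to 46 lower in Hdepl (median -0.20 to -0.14, lowest without untreated replicate 1), 4 to 5 and 61 to 67 in Wdepl (median -0.48 to -0.41), and 42 to 45 and 23 directly (median 0.23 to 0.27). The counts were 24 higher and 45 lower in Hdepl with edgeR, 19 and 41 with DESeq2, and 16 and 35 in limma without the trend. Directions that reversed are given for the genes that the naming rule picked in each comparison. In Hdepl they were those of UQCRB (-0.030), ATP5F1B (-0.087) and COX6B1 (-0.17) under quantile normalisation, with ATP5F1B and COX6B1 past the threshold. ATP5MC1 reversed with pseudogene reads (0.015). COX6B2 did so over the fits without a library (-0.35 to 0.033, highest without untreated replicate 1), and NDUFA4L2 likewise (-0.13 to 0.42, lowest without Hdepl replicate 2). In Wdepl the reversed directions were those of MT-ND1 (-0.048 without untreated replicate 2, up to 0.41 without replicate 1) and NDUFS8 (-0.027 without untreated replicate 1, up to 0.13 without replicate 2). In the direct comparison they were those of NDUFV2 (0.12) and SDHA (-0.69) with pseudogene reads and UQCRHL under quantile normalisation (0.0077). The listing leaves out other mitochondrially encoded subunits. Of the 13, 9 rose in Wdepl without untreated replicate 1, beside 1 with all libraries. Except for the pseudogene reads and the members with little overlap, where fewer or other reads enter, the cause was not tested. The replicate numbers did not pair the libraries (correlations of deviations of 0.050 in Hdepl and 0.0074 in Wdepl), and a fit with a replicate block gave 24 higher and 42 lower in Hdepl, 4 and 67 in Wdepl, and 45 and 23 directly. Depth limits the members with few reads: COX7A1, with 64 reads in all libraries, had a standard error of 0.44 on the log2 scale in Wdepl, and NDUFA7, with 124 reads, of 0.40.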
